A study of Mus musculus with 6 samples.

Results

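The genes described here encode the enzymes and the shared core of the complexes that methylate lysine 4 of histone H3 (H3K4), as measured in mouse colonic crypts after inhibition of EZH2. They were chosen by name: *Kmt2a*, *Kmt2b*, *Kmt2c*, *Kmt2d*, *Kmt2e*, *Setd1a*, *Setd1b*, *Wdr5*, *Ash2l* and *Rbbp5*. All 10 were found among the 18049 genes of the crypt RNA-Seq table, and all 10 were among the 16670 genes that passed a filter on low values. Total RNA was sequenced as paired 76 bp reads from crypts of 3 control and 3 GSK503-treated mice. GSK503 is a small molecule that inhibits the catalytic activity of EZH2, the enzyme that methylates lysine 27 of histone H3 (H3K27). It was injected into the tail vein at 200 μg/kg body weight in PBS, and the control mice (the controls) received captisol in PBS.

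Every mouse in both groups came from a model of Lynch syndrome on a C57BL/6J background that carries a Villin-Cre transgene, which drives Cre in the intestinal epithelium. A humanized *TgfβRII* knock-in was also present, and all mice ate a Western-style diet, so the control mice are not healthy wild-type mice. The labels give no age or sex. *Xist* was high in every treated mouse and low in every control, and Y-linked genes the reverse, so treatment and sex-linked expression cannot be told apart in any comparison here. The labels number the libraries as replicates without naming the animals, so p-values measure the spread between libraries, taken here as 1 per mouse.

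H3K4 is methylated by a family of complexes that share a core of WDR5, RBBP5, ASH2L and DPY30, onto which a catalytic subunit with a SET domain is docked. SETD1A and SETD1B place much of the trimethyl mark at active promoters, KMT2A and KMT2B (also called MLL1 and MLL2) act at CpG-rich promoters that include the Hox genes, and KMT2C and KMT2D (MLL3 and MLL4) place the monomethyl mark at enhancers. These enzymes belong to the Trithorax group, which acts against the Polycomb group to which EZH2 belongs, and *KMT2C* and *KMT2D* are often mutated in colorectal cancer.

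The members lie on 7 chromosomes of GRCm39 and none is sex-linked. *Kmt2a* (ENSMUSG00000002028) spans chromosome 9 from 44714652 to 44792621 and *Kmt2d* (ENSMUSG00000048154) chromosome 15 from 98729550 to 98769085. *Kmt2b* (ENSMUSG00000006307) and *Setd1a* (ENSMUSG00000042308) are on chromosome 7, from 30268283 to 30288414 and from 127375842 to 127399294. Chromosome 5 holds *Kmt2c* (ENSMUSG00000038056, 25476796 to 25703810), *Kmt2e* (ENSMUSG00000029004, 23639418 to 23709233) and *Setd1b* (ENSMUSG00000038384, 123280256 to 123306692). Among the core genes, *Wdr5* (ENSMUSG00000026917) lies on chromosome 2 from 27405161 to 27426560, *Ash2l* (ENSMUSG00000031575) on chromosome 8 from 26302560 to 26337743 and *Rbbp5* (ENSMUSG00000026439) on chromosome 1 from 132399337 to 132433427. Their transcripts are long. The canonical transcript of 8 of the 10 exceeded 6 kb, a length that 15.5% of all autosomal genes tested reached, and those of *Kmt2a*, *Kmt2c* and *Kmt2d* had 16.5, 16.8 and 19.8 kb.

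RefSeq promoter sequences (build GRCm38.p6, 250 bases before to 50 bases after the start) were at hand for 6 of the members. The letters CG (a CpG, the same on either strand) occurred between 16 and 56 times in these 300-base windows, against a median of 7 in all 32851 promoters of this length. The CXXC zinc finger of KMT2A, KMT2B and CXXC1 binds unmethylated CpG, so CpG is set in capitals. The *Kmt2c* promoter (chr5:25498734-25499033, minus strand) is shown as the richest, with 56 CpG, a number that 0.195% of all promoters reached. Its paralog *Kmt2d* (chr15:98871156-98871455, minus strand) had 27, a number that 15.5% reached. *Rbbp5* (chr1:132477117-132477416, plus strand) had the lowest number, 16, which 33% reached.
*Kmt2c*: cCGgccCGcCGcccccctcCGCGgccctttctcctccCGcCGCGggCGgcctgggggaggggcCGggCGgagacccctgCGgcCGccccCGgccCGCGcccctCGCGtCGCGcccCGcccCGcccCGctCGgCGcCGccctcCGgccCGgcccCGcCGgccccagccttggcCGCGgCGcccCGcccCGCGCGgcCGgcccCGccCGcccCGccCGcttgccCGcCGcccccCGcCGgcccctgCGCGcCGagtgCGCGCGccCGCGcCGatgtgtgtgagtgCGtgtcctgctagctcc
*Kmt2d*: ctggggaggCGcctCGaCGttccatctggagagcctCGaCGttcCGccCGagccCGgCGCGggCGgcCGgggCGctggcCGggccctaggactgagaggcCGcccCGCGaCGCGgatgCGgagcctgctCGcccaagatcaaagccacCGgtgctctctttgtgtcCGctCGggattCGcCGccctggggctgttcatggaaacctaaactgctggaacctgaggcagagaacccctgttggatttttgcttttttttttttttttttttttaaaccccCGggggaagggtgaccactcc
*Rbbp5*: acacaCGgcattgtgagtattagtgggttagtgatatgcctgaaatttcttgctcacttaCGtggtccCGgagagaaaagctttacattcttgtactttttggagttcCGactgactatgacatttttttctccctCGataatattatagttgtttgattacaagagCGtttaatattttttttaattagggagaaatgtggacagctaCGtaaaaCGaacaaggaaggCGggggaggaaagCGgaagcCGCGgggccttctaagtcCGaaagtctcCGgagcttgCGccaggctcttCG

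At the level of mRNA, none of the H3K4 methyltransferase and core genes among the members passed the test for a difference between the groups. The largest differences in mean were a *Setd1b* level 24.9% higher (a log2FC of 0.32, or 0.18 without control mouse 2) and *Kmt2e* and *Kmt2c* levels lower by log2FC of -0.29 and -0.27 in GSK503-treated mice. Of the 10 members, 0 had an adjusted p below 0.05 or below 0.1 from limma (Benjamini-Hochberg over all genes tested), where 0.642% and 1.97% of all genes did, and limma-voom also called 0. An unadjusted p below 0.05 was found for 3 members, against 13.3% of all genes. The 3 treated mice lay wholly on one side of the 3 control mice for 4 members, above them for 1 and below them for 3. Of all genes, 19.1% did not overlap (9.84% higher, 9.22% lower). These shares varied with transcript length, and 8 of the members exceed 6 kb. In the classes of 6 to 8, 8 to 12 and above 12 kb, between 15.4% and 18.9% of autosomal genes lay wholly below and between 5.10% and 6.61% wholly above. The log2FC was negative for 7 and positive for 3 members, with a median of -0.10, and the median of all genes tested was -0.01. *Kmt2b* and *Kmt2d* turned negative when libraries were scaled by their size alone, which lowered the median of all genes to -0.12. The members' median was -0.0623 without control mouse 1, -0.0444 without control mouse 3, -0.0486 without treated mouse 3 and -0.0454 once a trend over transcript length (described after the ratios) had been removed. The median absolute log2FC was 0.11 for the members and 0.16 for all genes. The 95% interval of the log2FC lay within 0.5 in either direction for 8 of the 10, and the farthest bound was 0.61, for *Setd1b*.

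**Figure D1:**
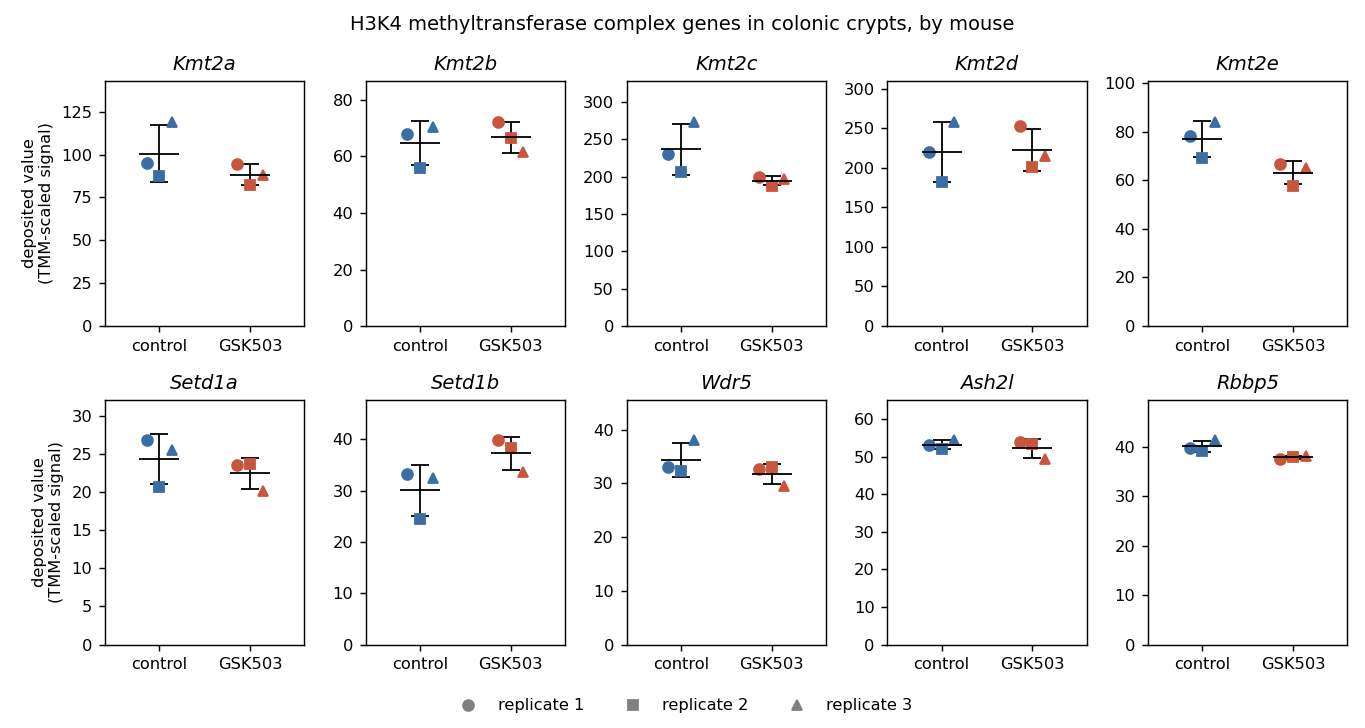
Deposited value (TMM-scaled signal, linear axis from 0) of each member in 3 control mice (blue) and 3 GSK503-treated mice (red), with the mean and SD of each group in black and the marker shape giving the replicate number. All treated points lie below all control points for *Kmt2c*, *Kmt2e* and *Rbbp5* and above them for *Setd1b*, and control mouse 2 is the lowest control for all 10 genes.

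The values used are estimated counts scaled to the TMM-adjusted library size, and each log2FC is on the log2(value + 0.1) scale. *Setd1b*, a catalytic subunit of the SET1 complexes, read 33.2, 24.4 and 32.5 in controls 1, 2 and 3, against 39.8, 38.4 and 33.7 in treated mice 1, 2 and 3. Every treated mouse was above every control mouse, although treated mouse 3 and control mouse 1 were close to each other. Its control mean was 30.0 ± 4.90 and its treated mean 37.3 ± 3.20 (SD, n = 3 each), with a log2FC of 0.32 (95% interval 0.03 to 0.61, limma adjusted p = 0.325). Without control mouse 2, the lowest of the 6, the log2FC of *Setd1b* was 0.18. *Setd1a*, its paralog, had values of 26.7, 20.7 and 25.5 in the controls, against 23.5, 23.7 and 20.1 in the treated mice. These ranges overlapped and the log2FC was -0.11 (95% interval -0.38 to 0.16, limma adjusted p = 0.751), so a fall to 0.766-fold or a rise to 1.12-fold of the control level lies within the interval.

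For *Kmt2c*, an enhancer H3K4 monomethyltransferase, control mice 1, 2 and 3 had values of 231, 206 and 274 and treated mice 1, 2 and 3 had values of 199, 188 and 197. The treated mice were close together and below all the control mice, which varied more. The log2FC of *Kmt2c* was -0.27 (95% interval -0.50 to -0.05, limma adjusted p = 0.286), and -0.16 without control mouse 3. *Kmt2d*, the other enzyme of this pair, had values of 220, 182 and 258 in the controls, against 252, 201 and 215 in the treated mice, with wide overlap. Its log2FC was 0.02 (95% interval -0.27 to 0.32, limma adjusted p = 0.959), so a change of more than 1.25-fold upward is outside this interval. With the trend over transcript length removed, the 95% interval of *Kmt2d* was -0.03 to 0.36, so that upper limit holds for the deposited values only.

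The promoter enzymes *Kmt2a* and *Kmt2b* overlapped between the groups. *Kmt2a* had values of 94.8, 87.3 and 119 in the controls, against 94.4, 82.1 and 88.0 in the treated mice, a log2FC of -0.18 (95% interval -0.43 to 0.08, limma adjusted p = 0.548). Control mouse 3 alone stood well above the other 5 mice, and without it the log2FC of *Kmt2a* was -0.0475. *Kmt2b* had values of 68.0, 55.9 and 70.6 in the controls, against 72.3, 66.7 and 61.5 in the treated mice, a log2FC of 0.05 (95% interval -0.19 to 0.28, limma adjusted p = 0.893). *Kmt2e* (also called MLL5) carries a SET domain whose methyltransferase activity is doubtful and a PHD finger that binds H3K4me3. Its values were 78.1, 69.2 and 84.0 in the controls, against 66.7, 57.5 and 65.2 in the treated mice, all treated mice being below all control mice. The log2FC of *Kmt2e* was -0.29 (95% interval -0.50 to -0.07, limma adjusted p = 0.227, the lowest of the 10 members).

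The 3 core subunits varied least within groups in the deposited values. Once the trend over transcript length was removed, *Kmt2c*, *Kmt2a* and *Kmt2e* had a smaller within-group SD than *Wdr5* (0.064, 0.075 and 0.090 against 0.098, log2). *Wdr5*, the subunit that binds the catalytic subunits through their Win motif, had values of 33.0, 32.2 and 38.0 in the controls, against 32.7, 33.0 and 29.5 in the treated mice. *Ash2l*, which together with RBBP5 stimulates the SET domain, had values of 53.2, 52.2 and 54.4 in the controls, against 53.9, 53.4 and 49.4 in the treated mice. The groups overlapped for *Wdr5* and *Ash2l*. *Rbbp5* was 39.8, 39.2 and 41.3 in the controls, against 37.5, 37.9 and 38.2 in the treated mice. These groups did not overlap, yet the log2FC of *Rbbp5* was only -0.08, and its within-group SD was 0.03 on the log2 scale. The limma adjusted p was 0.649 for *Wdr5*, 0.91 for *Ash2l* and 0.678 for *Rbbp5*, and the 95% intervals ran from -0.33 to 0.10, from -0.19 to 0.14 and from -0.25 to 0.08 on the log2 scale. An exact two-sided permutation test gave p = 0.1 for *Kmt2c*, *Kmt2e*, *Setd1b* and *Rbbp5*, the smallest p that 3 mice against 3 allow, and a p between 0.4 and 1 for the other members.

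**Figure D2:**
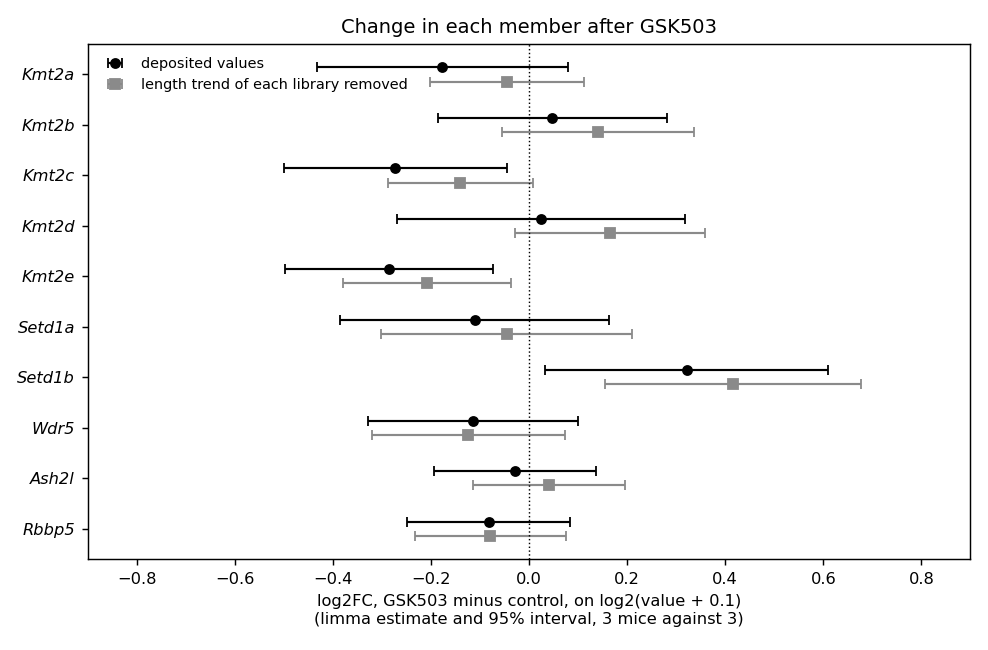
Log2FC of each member (GSK503 minus control, log2(value + 0.1) scale) with its 95% interval from limma, for the deposited values (black circles) and after each library's trend over transcript length had been removed (grey squares). The black intervals of *Kmt2c*, *Kmt2e* and *Setd1b* exclude 0 before adjustment for the number of genes, and the lowest adjusted p is 0.227 for the deposited values (*Kmt2e*) and 0.152 with the trend removed (*Setd1b*).

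The catalytic subunits come in pairs of paralogs, and the ratio between paralogs within a mouse does not depend on how its library was scaled. The ratio of *Setd1a* to *Setd1b* separated the groups most clearly. It was 0.806, 0.847 and 0.785 in controls 1, 2 and 3, against 0.591, 0.617 and 0.597 in treated mice 1, 2 and 3. The control mean was 0.813 ± 0.0317 and the treated mean 0.602 ± 0.014 (SD, n = 3 each; exact two-sided permutation test, p = 0.1, the smallest possible, and 0.15 with Benjamini-Hochberg adjustment over the 3 ratios). The difference was -0.43 on the log2 scale, and the SDs within the groups were 0.06 and 0.03. How often the ratio of other gene pairs separates these groups was not tested. The division of the difference between the paralogs depended on the scaling: with library size alone, the log2FC was 0.21 for *Setd1b* and -0.22 for *Setd1a*. The ratio of *Kmt2c* to *Kmt2d* was 1.05, 1.13 and 1.06 in the controls, against 0.789, 0.936 and 0.921 in the treated mice, without overlap. The log2 difference was -0.30 (exact two-sided permutation test, p = 0.1, adjusted p = 0.15). The ratio of *Kmt2a* to *Kmt2b* was 1.40, 1.56 and 1.69 in the controls, against 1.31, 1.23 and 1.43 in the treated mice. These overlapped (log2 difference -0.22, exact two-sided permutation test, p = 0.2).

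**Figure D3:**
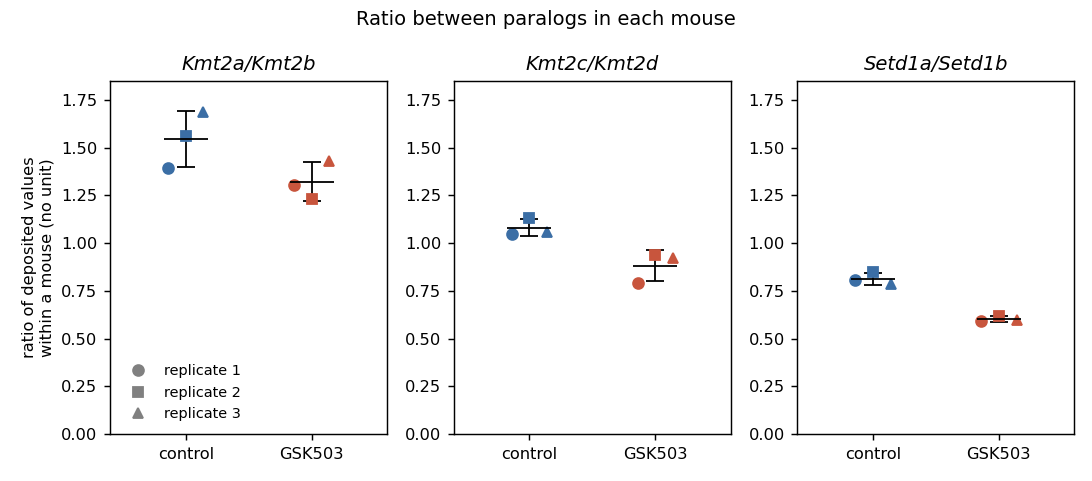
Ratio of the deposited values of 2 paralogs within each mouse (no unit, axis from 0), with the mean and SD of 3 mice a group in black. For *Setd1a*/*Setd1b* the treated mice sit between 0.591 and 0.617 and the control mice between 0.785 and 0.847, *Kmt2c*/*Kmt2d* is separated by a smaller gap, and *Kmt2a*/*Kmt2b* overlaps.

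The members varied together from mouse to mouse. Control mouse 2 had the lowest value of the 3 controls for all 10 members, as it had for 33.1% of all genes tested, and control mouse 3 had the highest for 8 of the 10, as for 37.3% of all genes. These shares take no account of transcript length. Within the controls, autosomal genes of 8 to 12 kb had a median deviation of 0.12 (log2) in mouse 3 and -0.06 in mouse 2. Pearson's r over the 6 mice was above 0 for 41 of the 45 pairs of members, with a median of 0.53, against 0.00 over all pairs of genes tested. The closest pair was *Kmt2c* and *Kmt2e* (r = 0.94), followed by *Kmt2c* and *Rbbp5* (r = 0.94) and *Kmt2a* and *Kmt2c* (r = 0.94). *Setd1b* ran against *Rbbp5* (r = -0.46) and *Kmt2e* (r = -0.33) over the 6 mice, although each of these genes was lowest in control mouse 2 among the controls. These correlations are descriptions over 6 points that share the library scaling and, for most members, a long transcript. They pool the groups, so they also hold the difference between control and treated mice.

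Transcript length moved with these values. Among the 15663 autosomal genes tested that had a length, the median log2FC was 0.07 for transcripts of up to 1 kb and fell with each length class to -0.11 for those of 8 to 12 kb, and it was -0.10 for the 195 genes above 12 kb. Genes above 12 kb had a median deviation from their mean over the 6 mice of 0.19 (log2) in control mouse 3 and of -0.12 in treated mouse 2. Against the median of their own length class, 6 members had a lower and 4 a higher log2FC. *Kmt2a* and *Kmt2c*, with log2FC of -0.18 and -0.27, were below the -0.10 of transcripts above 12 kb, and *Kmt2d* was above it. *Setd1b*, at 8.86 kb, had a log2FC of 0.32 against -0.11 for its class.

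When each library's trend over transcript length was removed, an alternative chosen after seeing the data, the spread within groups narrowed for 9 of the 10 members. Their median within-group SD went from 0.15 to 0.09 on the log2 scale, and that of all genes tested from 0.18 to 0.17. *Kmt2a* moved to a log2FC of -0.04, *Kmt2c* to -0.14 and *Kmt2e* to -0.21. *Kmt2d* moved to 0.16, with values of 220, 186 and 219 in the controls, against 253, 224 and 224 in the treated mice, and the groups no longer overlapped. *Setd1b* moved to 0.42 (95% interval 0.16 to 0.68), with an unadjusted p of 0.00544 and a limma adjusted p of 0.152. In this fit 0 members had an adjusted p below 0.1, 2 (*Kmt2e* and *Setd1b*) had an unadjusted p below 0.05, against 13.4% of all genes, and 5 did not overlap, against 19.1% of all genes. The ratios of *Setd1a* to *Setd1b* and of *Kmt2c* to *Kmt2d* stayed separated, with log2 differences of -0.46 and -0.30.

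**Figure D4:**
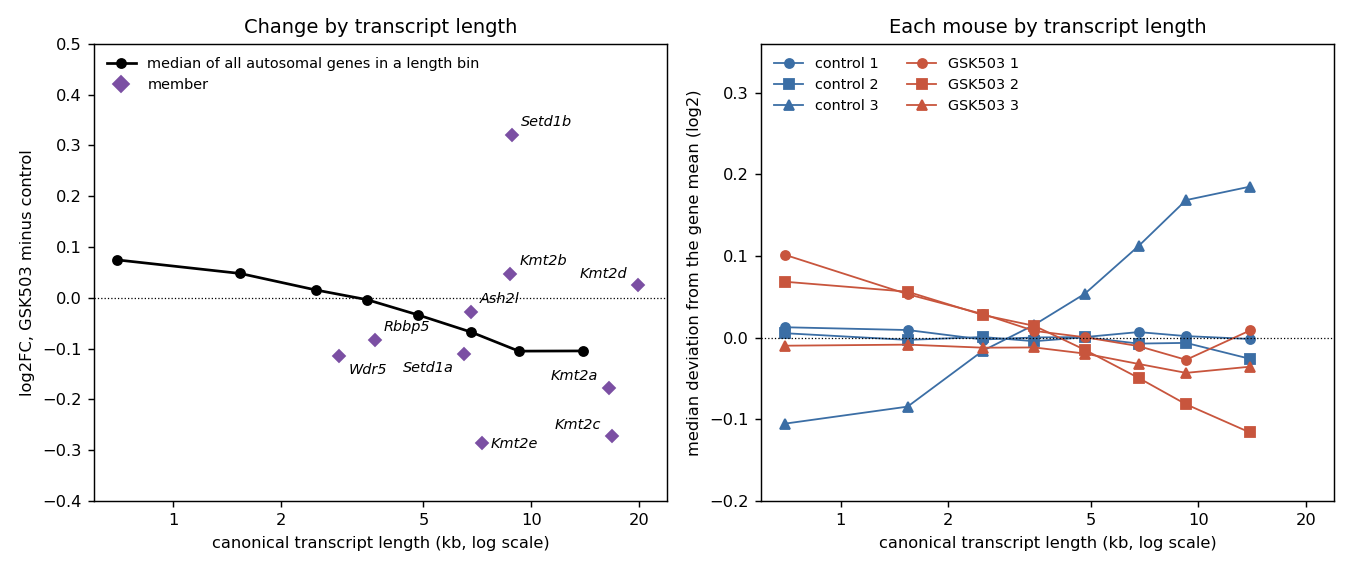
Left, log2FC (GSK503 minus control) against canonical transcript length (kb, log axis) for the members (purple) and for the median of all autosomal genes in 8 length classes (black line, from 0.07 to about -0.10). Right, the median deviation of each mouse from the gene means (log2) in the same classes, where control mouse 3 rises to 0.19 and GSK503-treated mouse 2 falls to -0.12 in the longest.

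Divided by the length of the canonical transcript, the levels of the members spanned a narrow range. *Kmt2c* had the highest level per kb, 12.8 (range over 6 mice 11.1 to 16.2), followed by *Wdr5* at 11.4, *Kmt2d* at 11.2, *Rbbp5* at 10.7 and *Kmt2e* at 9.64. *Ash2l*, *Kmt2b* and *Kmt2a* had 7.79, 7.53 and 5.72 per kb. *Setd1b* and *Setd1a* were lowest, at 3.80 and 3.60 per kb, and the median of all genes tested was 4.50. Each gene's range over the 6 mice overlapped that of its neighbour in this order, with the exception of *Kmt2a* and *Setd1b*. The order depends on the isoforms: with all annotated exons as the length, *Kmt2d* came first at 11.1 per kb, *Kmt2c* second at 8.38 and *Wdr5* seventh at 4.34. The last 2 places were held by *Setd1a* and *Setd1b* with either length.

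Few other genes of the pathway passed the test. Of 41 other genes that write, erase or read H3K4 methylation, 40 were tested. At a limma adjusted p below 0.05 (0.642% of all genes), 2 were higher and 1 was lower in the treated mice. All 3 are on the X or Y chromosome, and sex-linked expression separated the same groups. Of the 35 autosomal genes, 0 passed 0.05 or 0.1 in limma, and their median log2FC was -0.06. Among these 35, the treated mice lay wholly above the controls for 1 and wholly below them for 8 (9.84% and 9.22% of all genes). The lower share was 4.15% for transcripts of up to 1 kb and 18.9% for those of 8 to 12 kb, and these counts take no account of length.

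*Kdm6a* is X-linked and encodes an H3K27 demethylase that is also a subunit of the KMT2C and KMT2D complexes. It had values of 37.4, 46.6 and 48.7 in the controls, against 78.0, 74.6 and 71.2 in the treated mice. Its log2FC was 0.76 (95% interval 0.53 to 0.995), and it was called higher (limma adjusted p = 0.0157). This call was lost in limma without the trend of the variance over intensity (adjusted p = 0.194) and without treated mouse 1 or 2 (0.0524 and 0.093). The other subunits of these complexes, *Ncoa6*, *Paxip1* and *Pagr1a*, overlapped between the groups, with a log2FC of -0.20, 0.02 and -0.11. *Dpy30*, the remaining core subunit, overlapped as well (log2FC 0.08, limma adjusted p = 0.794).

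Of the SET1-complex subunits, *Cxxc1* (0.02) had the highest and *Bod1l* (-0.17) the lowest log2FC, and *Wdr82* and *Bod1* had -0.06 and -0.11. For *Bod1l*, values of 120, 112 and 134 in control mice stood against 106, 109 and 109 in treated mice, with no overlap (limma adjusted p = 0.392). Among the partners of KMT2A and KMT2B, *Men1*, *Psip1* and *Tasp1*, which encodes the protease that cleaves these enzymes, had a log2FC of 0.13, -0.09 and 0.05. *Hcfc1*, on the X chromosome, and its autosomal paralog *Hcfc2* had the lowest and the highest, -0.25 and 0.24 (limma adjusted p = 0.337 and 0.354). All 5 other methyltransferases tested had a negative log2FC, from -0.31 for *Smyd3* to -0.04 for *Smyd2*. For 3 of them the treated mice lay wholly below the controls. Of all genes, 51.1% had a negative log2FC and 9.22% lay wholly below. The 3 have transcripts of 6 to 12 kb. There the shares were 64.3% and 15.4% for 6 to 8 kb and 67.8% and 18.9% for 8 to 12 kb. *Smyd1* was too low to be tested.

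Among 6 H3K4 demethylases, *Kdm5c* was higher in the treated mice (log2FC 0.54, limma adjusted p = 0.0157). Its values were 145, 153 and 164 in the controls, against 229, 234 and 212 in the treated mice. The call of *Kdm5c* was lost in limma without that trend (adjusted p = 0.195) and without control mouse 1 or 2 or treated mouse 1 or 2 (0.0516 to 0.124). Its Y-linked homolog *Kdm5d* had values of 91.7, 87.5 and 86.1 in the controls, against 0.0424, 0 and 0.2 in the treated mice (limma adjusted p = 1.35e-06). For *Kdm5c* and *Kdm5d*, as for *Kdm6a*, treatment and sex-linked expression cannot be told apart. The remaining 4 H3K4 demethylases did not pass the test. All 15 readers of H3K4 methylation were tested and 0 passed, with *Pygo2* highest (log2FC 0.17) and *Ing3* lowest (log2FC -0.29). *Ezh2* itself had values of 46.7, 37.4 and 46.5 in the controls, against 36.6, 35.2 and 36.3 in the treated mice, without overlap (log2FC -0.27, limma adjusted p = 0.291).

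**Figure D5:**
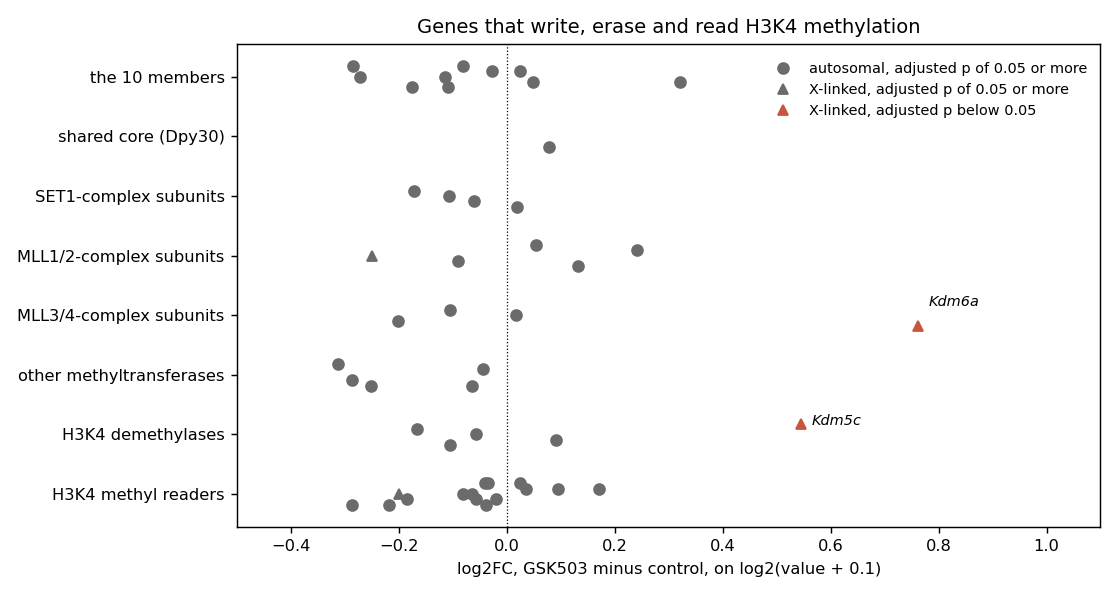
Log2FC (GSK503 minus control) of the members and of 7 lists of other genes of H3K4 methylation, one point a gene, red where the limma adjusted p is below 0.05 and triangles for X-linked genes. Apart from *Kdm6a* (0.76) and *Kdm5c* (0.54), all points lie between -0.31 and 0.32, and *Kdm5d*, which is Y-linked, is off this scale and not drawn.

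Sex-linked expression separated the groups by a wide margin. *Xist*, the RNA that coats the inactive X chromosome, ranged from 0.419 to 0.936 among the controls and from 825 to 1236 among the treated mice. The Y-linked *Ddx3y* ranged from 61.4 to 65.2 among the controls and from 0 to 0.0915 among the treated mice. The study's methods state that both sexes were used. *Kdm6a* and *Kdm5c* are known to escape X inactivation. Cell markers moved as well. The summed level of 6 goblet cell genes ranged from 10122 to 18316 among the controls and from 31336 to 49874 among the treated mice. That of 5 enteroendocrine genes ranged from 188 to 235 among the controls and from 118 to 153 among the treated mice. At a limma adjusted p below 0.05, 3 of the 6 goblet genes were higher and 3 of the 5 enteroendocrine genes lower. Of all genes, 0.642% passed this threshold in either direction. Sums of 3 tuft cell genes (16.9 to 25.1 among the controls, 32.0 to 37.0 among the treated mice) and of 5 stem and proliferating cell genes (1098 to 1239 and 871 to 1029) did not overlap either, nor did those of 4 enteric neuron and glia genes, which were low in all mice (1.13 to 1.845 and 1.848 to 2.71), and 0 of these genes passed the test in limma. Levels of 6 epithelial markers overlapped (9565 to 10455 and 10029 to 11670). The sum of 5 smooth muscle genes ranged from 4.07 to 110 within the treated mice, treated mouse 3 being the highest of all 6. Among the controls this sum ranged from 20.3 to 80.4, control mouse 2 being the highest. Control mouse 2 also had the highest sum of 6 B cell genes of all mice (75.0). Sums of T cell, B cell, macrophage and fibroblast genes overlapped between the groups. No marker was at 0 in every library. The part of cell composition in the members' values was not tested, and in bulk RNA fewer cells of a type and less RNA per cell cannot be told apart. Without treated mouse 3, the log2FC was 0.39 for *Setd1b*, -0.28 for *Kmt2c* and -0.31 for *Kmt2e*, and no member was called. Without control mouse 2, 6 members did not overlap, against 29.6% of all genes. Scaled by library size alone, 2 members (*Kmt2c* and *Kmt2e*) passed an adjusted p of 0.1, as did 6.03% of all genes, and 6 did not overlap, against 26% of all genes.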

How the data were processed

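RNA-Seq libraries of crypts (3 control, 3 GSK503) were compared, with groups and replicate numbers from the sample labels. Per the study's methods, the authors used STAR for alignment (GRCm39), RSEM for quantification and TMM in edgeR for scaling. The deposited signal therefore holds RSEM estimates relative to an effective library size. The annotation and any filter on genes are not given in the sources used here. Between 75.1% and 78% of the values above 0 were whole multiples (tolerance 0.01) of a step, which put the library totals between 108162848 and 135085027 counts. At this depth 3 counts correspond to a value of at most 0.0271, far below every member.

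As no raw counts were used, a linear model in limma 3.58.1 (under R 4.3.3) was fitted to log2(value + 0.1) for the 16670 genes with at least 0.1 in at least 3 mice, with a trend of the variance over intensity. P-values were adjusted by Benjamini-Hochberg. The members and lists were chosen with earlier results of these data known, and so were the test and its filter. All members are named. Of the other lists, the genes with an adjusted p below 0.1 and those with the highest and lowest log2FC are named, as are all complex subunits, *Ezh2* and sex-linked genes. Symbols were matched to GENCODE M39 for GRCm39 (95.98% matched a single gene), which gave coordinates and the lengths of canonical transcripts. The test was checked on simulated data with changes larger than those of any member, so how often it finds changes of the members' size was not tested. No 2 libraries were identical, and correlations between them (Pearson's r over genes) ran from 0.976 to 0.99. Alternatives were other pseudocounts, filters and scalings, a replicate block, no intensity trend, robust empirical Bayes, limma-voom, X and Y genes left out, and each mouse left out in turn. Removal of a lowess curve (span 0.3) over log2 transcript length was added after seeing the data. Permutation tests used scipy 1.17.1 in Python 3.11.15, and plots matplotlib 3.10.9. One item of the mouse model is not reported here.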

Additional observations from a re-analysis of the deposited data

How the results depend on the processing

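No member was called at an adjusted p of 0.05 under any of the 18 alternatives tried. With library size alone as the scaling, which lowers the median log2FC of all genes to -0.12, 2 members (*Kmt2c* and *Kmt2e*, limma adjusted p = 0.0867 and 0.0734) passed 0.1, as did 6.03% of all genes, and 6 members did not overlap, against 26% of all genes. That scaling turned *Kmt2b* to -0.0665, *Kmt2d* to -0.0896, *Cxxc1* to -0.0949 and *Dpy30* to -0.0360. Removal of the length trend turned *Ash2l* to 0.0412. Leaving out single mice gave a log2FC from -0.0552 to 0.11 for *Kmt2b*, from -0.11 to 0.15 for *Kmt2d*, from -0.0514 to 0.0107 for *Ash2l*, from -0.00386 to 0.15 for *Dpy30* and from -0.11 to 0.0194 for *Smyd2*. *Setd1b* stayed between 0.18 and 0.40, *Kmt2c* between -0.37 and -0.16, *Kmt2e* between -0.36 and -0.22, and the log2 difference of the ratio of *Setd1a* to *Setd1b* between -0.46 and -0.40. The smallest *Kmt2c* difference was without control mouse 3 and the smallest *Setd1b* difference without control mouse 2, in whose absence 6 members did not overlap, against 29.6% of all genes. The number of all genes called at 0.05, which was 107, became 260 with library size alone (31.5% of them higher, against 77.6%), 33 with the replicate block, 16 without the intensity trend (56.2% higher), 174 with the length trend removed, and between 30 (without treated mouse 2) and 229 (without treated mouse 3, 54.6% higher) with each mouse left out. Of the other pathway genes, 3 were called, against 1 with the replicate block, 1 without the intensity trend, and between 1 and 3 with each mouse left out. Without X and Y genes the count was 0 by construction, as all 3 are on those chromosomes. The labels pair mice by no more than a replicate number. The r of their deviations was 0.03, -0.13 and -0.12 for same-numbered mice and from -0.17 to 0.22 for the other pairs. Whether same-numbered mice share a batch was not tested. The replicate block changed no member's call, while *Kdm6a* and *Kdm5c* had a limma adjusted p of 0.076 and 0.0862 with it. The cause of these changes was not tested. With 3 mice a group, the interval of a member's log2FC reached 0.23 to either side (median), so smaller changes could not be told from none. These intervals are not adjusted for the number of genes, so 0.23 is not the limit of the adjusted test. *Setd1b* (0.32), *Kmt2e* (-0.29) and *Kmt2c* (-0.27) exceeded 0.23 in size and were not called (limma adjusted p = 0.325, 0.227 and 0.286).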
